A study of Mus musculus with 8 samples.

Results

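The cells described here were 226 cells of the distal segment of E16.5 mouse forelimbs in which transcripts of at least 3 of 6 genes, 4 of them chemokine genes, were found together. They were chosen by a rule on measured values. A cell of the sorted E16.5 distal library with at least 3000 unique molecular identifiers (UMIs, each marking 1 captured transcript) and at most 10% mitochondrial UMIs was taken when it held 1 or more UMIs of at least 3 of the 6 genes *Cxcl5*, *Ccl7*, *Sp9*, *Ccl2*, *Cxcl2* and *Adh7*. The rule took 226 of 8447 filtered cells of that library, and the 8 libraries of the study held 53085 filtered cells. The other 8221 cells of the distal library served as the comparison. Because the levels of the 6 genes chose the cells, those levels are given as a description only, and the 6 genes were left out of every count of other genes.

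Forelimb cells were profiled with 10x Genomics 3′ droplet libraries from E11.5 to E16.5, with 1 sorted library each of E11.5, of E12.5, of E13.5 and of E14.5 and 1 for either segment of E16.5. The sorted libraries came from C57BL/6J mice with Hic1CreERT2/CreERT2 and Rosa26LSLtdTomato/tdTomato, whose dams were given 7.5 mg tamoxifen at E10, which turns on the reporter in *Hic1*-expressing cells and in all of their progeny. *Hic1* encodes a transcriptional repressor, and CreERT2 is driven from its locus. At E16.5 the limbs were divided, and the distal library holds the distal zeugopod and autopod (the lower forearm and the paw), while the proximal library holds the tissue around the elbow joint. Both of the E11.5 whole limb libraries carried tdTomato+ and tdTomato- cells of the same tamoxifen regime, and according to the methods of the paper they bore the *Hic1* CreERT2 and tdTomato alleles too. According to those methods, limbs of several embryos were pooled, cells were freed by enzymes at 37 °C, with dispase up to E12.5 and with collagenase and pronase later, and cells with blood or endothelial surface markers were removed in the sort. Each sorted stage and segment was 1 library, so no test was possible and no p-value is given. Intervals in brackets are exact 95% intervals, binomial for shares and Poisson for UMIs, and cover counting error only. In the distal library, *tdTomato* was detected in 99.2% and *Hic1* in 32.5% of the filtered cells. It shared between 0 and 32 of its cell barcodes with each other library.

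Chemokines are small secreted proteins that draw leukocytes along a gradient. CXC chemokines such as CXCL1, CXCL2 and CXCL5 act on neutrophils through the receptor CXCR2, and CC chemokines such as CCL2 and CCL7 act on monocytes through CCR2. Stromal cells and pericytes, the contractile cells on small vessels, make them when NF-kB, a transcription factor held inactive by the inhibitor IkBα, is released by cytokines or tissue stress. ADH7 is an alcohol dehydrogenase that can oxidise retinol, and SP9 is a zinc finger transcription factor known for its part in limb outgrowth. According to GRCm38 annotation, *Cxcl5*, *Cxcl1* and *Cxcl2* lie in 1 cluster on chromosome 5 (90759360 to 90761624, 90891241 to 90893115 and 90903871 to 90905938), and *Ccl2*, *Ccl7* and *Ccl11* in another on chromosome 11 (82035571 to 82037453, 82045712 to 82047525 and 82057823 to 82062955).

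Upstream sequences of 4 genes that are known NF-kB targets are shown, *Cxcl2* because it is one of the rule genes, and *Cxcl1*, *Il6* and *Nfkbia* because the account below turns on them. Each is the 250 bases before the RefSeq start (GRCm38.p6), written in the direction of transcription. Capitals mark matches to GGGNNTTTCC or, on the other strand, GGAAANNCCC, 10 letters of the kind NF-kB binds. The regions are chr5:90903649-90903898 on the plus strand for *Cxcl2*, chr5:90890995-90891244 on the plus strand for *Cxcl1*, chr5:30012864-30013113 on the plus strand for *Il6*, and chr12:55492648-55492897 on the minus strand for *Nfkbia*.
Cxcl2: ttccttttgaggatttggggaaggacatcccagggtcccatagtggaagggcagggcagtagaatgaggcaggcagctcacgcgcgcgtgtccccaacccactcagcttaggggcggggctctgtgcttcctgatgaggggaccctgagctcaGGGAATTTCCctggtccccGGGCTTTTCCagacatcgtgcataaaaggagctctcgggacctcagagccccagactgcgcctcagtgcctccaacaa
Cxcl1: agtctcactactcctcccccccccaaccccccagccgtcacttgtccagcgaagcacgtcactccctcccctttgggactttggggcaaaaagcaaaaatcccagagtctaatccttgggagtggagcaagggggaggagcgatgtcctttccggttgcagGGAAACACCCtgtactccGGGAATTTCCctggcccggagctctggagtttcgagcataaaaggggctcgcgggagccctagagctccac
Il6: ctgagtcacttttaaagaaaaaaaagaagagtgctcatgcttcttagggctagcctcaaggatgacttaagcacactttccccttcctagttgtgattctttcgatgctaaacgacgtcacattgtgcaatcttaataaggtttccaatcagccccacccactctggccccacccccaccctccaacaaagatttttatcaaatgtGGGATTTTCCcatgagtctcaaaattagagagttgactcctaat
Nfkbia: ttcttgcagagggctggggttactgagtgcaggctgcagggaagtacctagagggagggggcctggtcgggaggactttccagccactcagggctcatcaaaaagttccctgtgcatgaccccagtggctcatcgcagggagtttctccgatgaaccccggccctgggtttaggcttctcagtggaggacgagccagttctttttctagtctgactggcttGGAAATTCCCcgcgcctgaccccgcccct

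*Cxcl2* and *Cxcl1* each held 2 matches and *Il6* and *Nfkbia* 1 each. In *Cxcl2* the first bases of the matches lay 97 and 78 bases before the start, in *Cxcl1* 89 and 71. The single matches began 44 bases before the start of *Il6* and 29 before that of *Nfkbia*. Of all 32851 windows of this length, 464 (1.41%) held the letters on either strand. Among genes that were measured in the distal library and had a window, 80 of 4815 (1.66%) did so. Of the genes at least 2-fold higher in the 226 cells, 112 had a window and 7 held a match (6.25%), namely *Csf1*, *Cxcl1*, *Il6*, *Lepr*, *Nfkb2*, *Nfkbia* and *Tnfaip3*. Among the lower genes it was 3 of 117 (2.56%). These are letters in a window and describe no binding. *Cxcl2* was the only one of the 3 rule genes with a window that held a match.

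Cells with at least 3 of the 6 genes were found chiefly in the distal library at E16.5. The rule was set on that library, so its higher share is a description only. There the rule took 2.68% of the filtered cells (2.34 to 3.04%). In the proximal library it took 37 of 11109 cells, or 0.333% (0.235 to 0.459%), and at E14.5 it took 5 of 8381, or 0.0597%. No cell of the sorted libraries of E11.5, of E12.5 or of E13.5 or of the E11.5 whole limbs passed, which allows shares of up to 0.0948%, 0.0636%, 0.0490%, 0.0549% and 0.0528%. These limits, like that given for any count of 0 below, are 3 counts of the total and not the bounds of the exact interval. The libraries differ in depth, with median UMIs per filtered cell between 6788 and 18473, and a rule on detected genes moves with depth. With every cell thinned to 3000 UMIs, 41 distal cells (0.485%, 0.349 to 0.658%) and 4 proximal cells (0.0360%) passed, and none of any other library. An earlier reagent kit was used up to E13.5, so kit and stage cannot be told apart, and the distal library was counted with a later Cell Ranger version than the proximal one.

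**Figure D1:**
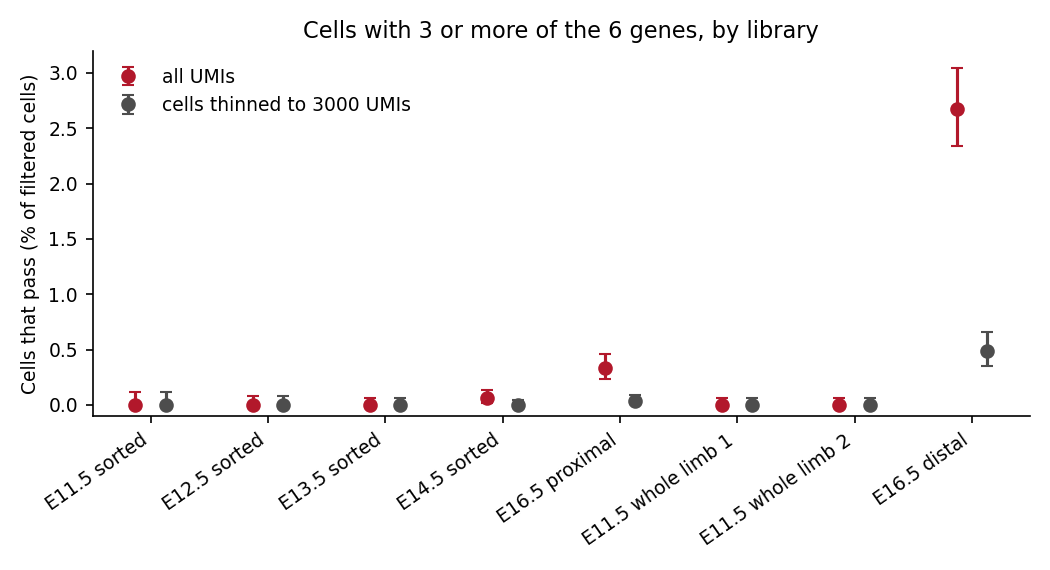
Share of filtered cells that pass the rule in each of the 8 libraries (y axis, percent), as deposited and with every cell thinned to 3000 UMIs, with exact binomial 95% intervals. The distal E16.5 library stands at 2.68%, the proximal at 0.333%, and the E11.5 to E13.5 libraries at 0.

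*Ccl2* had the highest level of the 6 rule genes, both in the 226 cells and over the whole distal library. Over all filtered cells it stood at 67.2 CPM (UMIs scaled to a total of 1000000) in the distal library, 16.6 in the proximal and 2.51 at E14.5. *Ccl7* stood at 20.2, 2.47 and 1.00 CPM in the same libraries and *Cxcl2* at 20.1, 2.76 and 0.366. *Cxcl5* stood at 10.7, 1.27 and 2.11 CPM and *Sp9* at 7.26, 0.302 and 1.99. For *Adh7* the intervals of both E16.5 segments overlapped, at 5.95 CPM (5.57 to 6.34) in the distal and 6.00 (5.69 to 6.32) in the proximal segment. *Cxcl1*, a chemokine that the rule did not use, stood at 85.2 CPM in the distal library against 18.6 in the proximal and 3.32 at E14.5. A level over a whole library does not tell more cells from more transcripts per cell.

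Within the 226 cells the genes were unevenly shared. *Ccl2* had a UMI in 188 cells, *Ccl7* in 156, *Cxcl2* in 145, *Adh7* in 111, *Cxcl5* in 101 and *Sp9* in 54. Summed over the cells, *Ccl2* reached 1102 CPM against 29.9 CPM in the other cells. *Cxcl2* reached 388 against 6.89 CPM, and *Ccl7* 314 against 9.63. *Cxcl5* stood at 135 against 6.20 CPM, *Adh7* at 42.8 against 4.62 and *Sp9* at 18.1 against 6.87. The 226 cells held 57.0% of all *Ccl2* UMIs and 66.9% of all *Cxcl2* UMIs of the filtered library, but 8.65% of those of *Sp9*. Per cell, *Ccl2* ranged from 0 to 355 UMIs with a median of 6, and *Cxcl2* from 0 to 169 with a median of 2.

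Most of the cells were taken through the chemokines. At least 2 of the 4 chemokine genes were detected in 204 cells (90.3%), at least 3 in 143 and all 4 in 17. The commonest combination was *Ccl7*, *Ccl2* and *Cxcl2* with none of the other genes, in 50 cells. The combination of *Cxcl5*, *Ccl7* and *Ccl2* followed with 21 cells, and that of *Ccl7*, *Ccl2* and *Adh7* with 18. Neither *Sp9* nor *Adh7* was found in 100 cells, and 22 cells passed through *Sp9*, *Adh7* and a single chemokine.

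Over all 8447 distal cells each pair of chemokines, and *Adh7* with each of the other genes, was found together more often than the product of their shares. *Ccl7* and *Cxcl2* were found together in 119 cells, 5.06 times the product of their shares, and *Ccl7* and *Ccl2* in 267 cells, 4.51 times. At 3000 UMIs per cell these ratios were 9.24 and 9.49. *Adh7* and *Cxcl2* shared 70 cells, 3.11 times the product, and *Adh7* and *Ccl2* 117, 2.06 times. *Sp9* and *Adh7* shared 126 cells, 3.35 times the product. *Sp9* and *Ccl2* shared 62 cells, 0.909 times the product, *Sp9* and *Ccl7* 36 cells, 0.916 times, and *Sp9* and *Cxcl2* 29 cells, 1.07 times. For *Sp9* and *Cxcl5* it was 50 cells, 1.62 times the product, and 1 cell, 0.307 times, at 3000 UMIs. The values are descriptions over cells of 1 library.

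The passing cells were deeper than the rest. Their median was 22039.5 UMIs against 17150 in the other cells, and the share of cells that passed was 0.379%, 1.99%, 3.08% and 5.26% over 4 bins of equal size, from the shallowest to the deepest cells. At 3000 UMIs per cell they held a median of 1376 genes against 1409. Mitochondrial UMIs made up 1.89% against 2.23% (medians), and the median doublet score was 0.0454 against 0.0429. Just inside the threshold, the 161 cells with exactly 3 genes had a median of 22491 UMIs, and just outside it the 514 cells with exactly 2 genes had 19469. With the cells of the highest 7% of doublet scores removed, 2.56% passed, and 155 genes were higher and 189 lower in place of 151 and 164. The part of depth in which cells passed was examined only by the thinning.

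Transcripts of the rule genes were also looked for in the keratinocyte-like and chondrocyte-like clusters. At 3000 UMIs, *Ccl2* was found in 50.4% of the passing cells, in 0 of 68 cells of the keratinocyte-like cluster, which allows up to 4.41%, and in 1 of 231 chondrocyte-like cells (0.433%). *Cxcl2* was found in 35.4% of the passing cells and in 1 cell of each of those clusters, which for the keratinocyte-like cells (1.47%) was no lower than in the other cells of the library (0.827%). *Adh7* was likewise at 1.47% of keratinocyte-like cells and 1.37% of the other cells. Without thinning, as the rule was applied, keratinocyte-like cells held *Adh7* in 13.2%, *Cxcl2* in 5.88% and *Ccl2* in 4.41%. Passing cells held them in 49.1%, 64.2% and 83.2%. Chondrocyte-like cells held them in 0.433%, 1.73% and 1.73%, and the other cells of the library in 4.90%, 2.74% and 9.05%. Whether single UMIs of *Adh7* and *Cxcl2* were background or the cells' own transcripts was not tested. In turn the keratin transcripts *Krt10* and *Krt1* were found in 47.8% and 14.6% of the passing cells and in 39.4% and 14.4% of the other cells. The keratinocyte-like cells were the deeper ones, with a median of 29687.5 UMIs, and the chondrocyte-like cells had 18808.

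The label of these cells as distal mesenchyme held in part. All 10 limb mesenchyme markers were measured, among them *Prrx1* at 406 against 301 CPM and *Pdgfra* at 200 against 228 CPM, and none passed 2-fold in either direction. *Col1a1* stood at 11436 CPM against 7690 and *Col3a1* at 10215 against 5566. The summed level of the list was 32569 CPM against 20537 in the other cells. The autopod list, limb Hox genes together with *Evx2* and genes of the Msx and Tbx families, was mixed, with a median log2 ratio of -0.26. *Hoxd13*, the last gene of the HoxD cluster and a mark of the digits, stood at 21.8 CPM (18.1 to 26.1) against 79.8 (78.4 to 81.2), and *Hoxd11* at 34.3 against 82.0. They were the 2 of 7 measured autopod genes that were at least 2-fold lower, against 2.64% of all genes, with none higher. *Hoxa13* stood at 16.2 against 31.7 CPM and *Tbx3*, the highest of the list, at 49.6 against 27.5, both under 2-fold. Against other cells of the same clusters *Hoxd13* and *Hoxd11* were not past 2-fold, with log2 ratios of -0.50 and -0.51. *Shox2*, a gene of more proximal limb segments, stood at 178 against 113 CPM, and 0 of the 5 measured genes of its list passed 2-fold. Immune markers were close to absent, with *Ptprc*, *C1qa* and *Adgre1* among the 6 of 10 at 0, and none of 8 endothelial markers reached 20 CPM in either group. Summed, the immune list stood at 3.97 CPM against 4.54 in the other cells and the endothelial list at 11.9 against 21.3. The sort had removed cells with blood or endothelial surface markers, so these low values do not bear on the label. Because the label held only in part, the cells are called passing cells here, after the rule. The other cells were not free of chemokine transcripts, with *Ccl2* in 744 of them (9.05%), *Ccl7* in 381 (4.63%), *Cxcl5* in 322 (3.92%) and *Cxcl2* in 225 (2.74%).

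**Figure D2:**
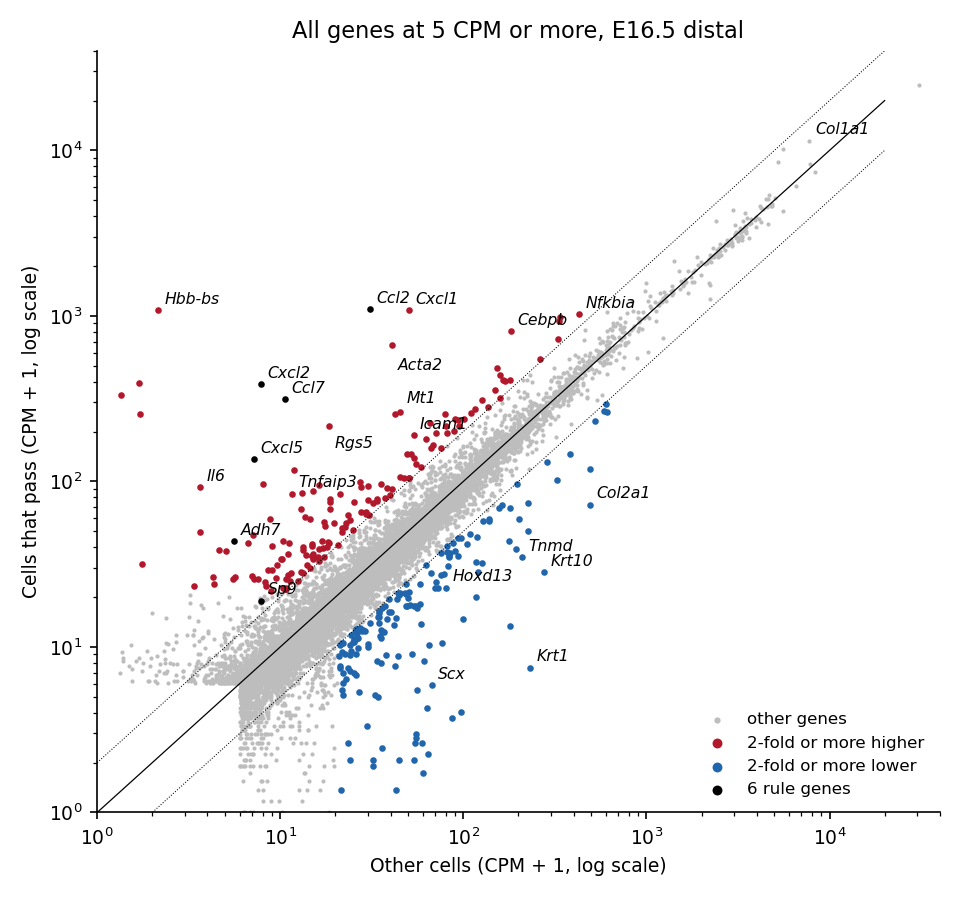
Level of each gene at 5 CPM or more in the passing cells (y axis) against the other distal cells (x axis), both as CPM + 1 on log scales, with named genes marked. *Cxcl1*, *Il6* and *Acta2* lie far above the diagonal and *Krt1*, *Col2a1* and *Hoxd13* below it.

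Genes of acute inflammation and of contractile vessel cells were the highest above the other distal cells, among genes at 50 CPM or more. Haemoglobin genes were left out of this ranking. *Il6*, the gene of the cytokine interleukin 6, stood at 91.2 CPM (83.4 to 99.5) against 2.65 (2.40 to 2.92), a log2 ratio of 4.66. *Cxcl1* stood at 1080 CPM against 49.3, a log2 ratio of 4.43, and *Ccl11*, the gene of the eosinophil attractant eotaxin, at 95.9 against 7.04 CPM. *Acta2*, smooth muscle actin, stood at 667 against 39.6 CPM, and *Rgs5*, a regulator of G-protein signals used to mark pericytes, at 217 against 17.4. Ratios here and below are of CPM + 1, and past 2-fold means a log2 ratio of at least 1 in size with at least 20 CPM in the higher group.

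Of 6210 genes at that floor, 151 (2.43%) were higher and 164 (2.64%) lower by 2-fold or more, and the median log2 ratio over all of them was -0.08. The other genes among the 15 highest included *Tnfaip3*, the gene of the NF-kB inhibitor A20 (83.4 against 10.6 CPM), and *Bcl3*, which encodes a partner of NF-kB subunits (66.8 against 12). *Cxcl10*, a chemokine for T cells, stood at 94.2 against 15.3 CPM. *Has1*, a hyaluronan synthase, stood at 86.1 against 14, and *Mt1*, a metallothionein, at 263 against 44.0. *Gm13889*, *Rgs16*, *Gucy1a3*, *Tagln* and *Rasgrp2* completed the 15, with log2 ratios between 2.16 and 3.30. The direction of *Tagln* depended on the rule. Its log2 ratio was 2.59, but -0.28 with *Ccl7* left out of the rule, -0.22 without *Cxcl2* and close to 0 without *Ccl2*.

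A few cells carried much of the contractile signal and of *Il6* and *Ptgs2*, whereas *Cebpb*, *Nfkbia* and *Icam1* were spread more widely. The 10 highest cells held 88.8% of the *Acta2* UMIs of the passing cells, and 82 of the 226 had any. The 10 highest cells held 72.5% of the *Il6* UMIs and the single highest 23.6%, and 63 cells had any. For *Ptgs2* it was 64.2% in the 10 highest, and 42 cells had any. For *Cxcl1* the 10 highest held 36.6%, and 174 cells had a UMI. The 10 highest cells held 17.7% of the UMIs of *Cebpb*, which encodes a transcription factor of inflammatory genes, 14.3% of those of *Nfkbia* and 16.6% of those of *Icam1*.

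**Figure D3:**
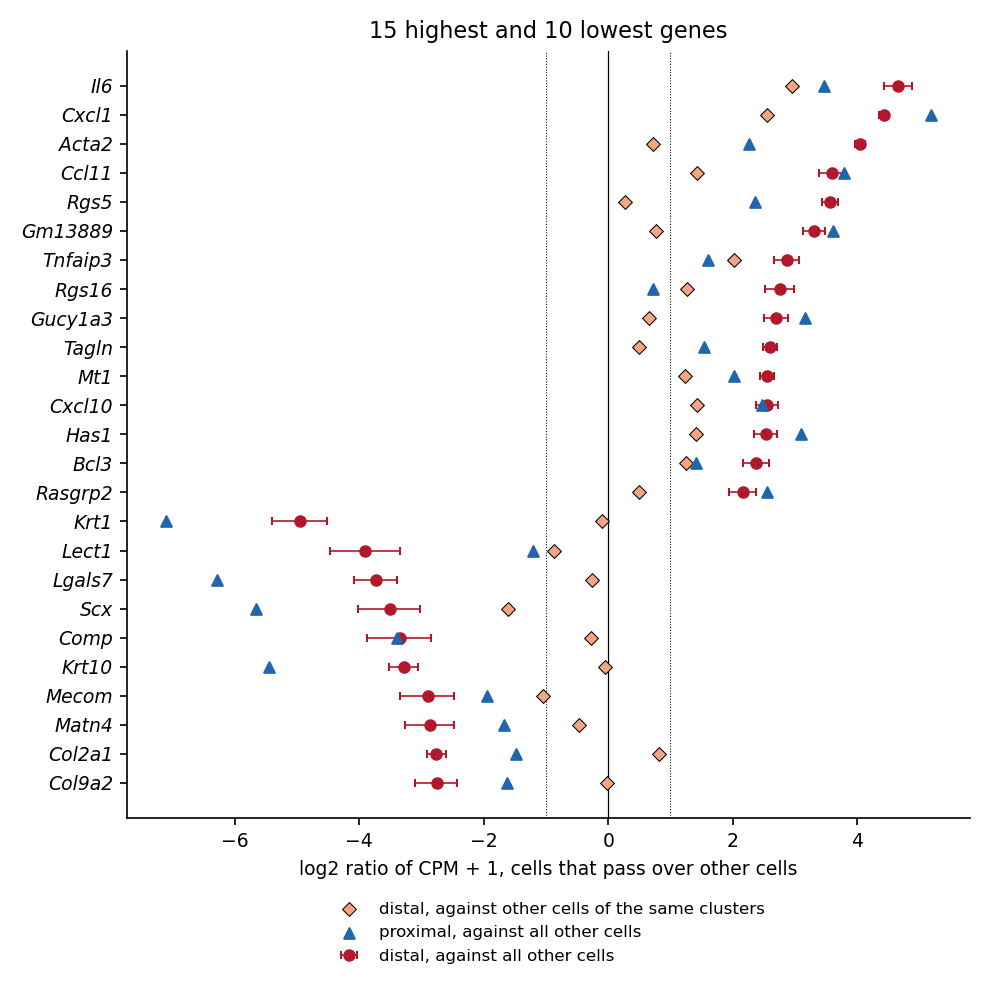
Log2 ratio of CPM + 1, passing over other cells, for the 15 highest and 10 lowest genes named by rule (x axis). Circles are the distal library with counting intervals, diamonds the distal cells against other cells of the same clusters, and triangles the proximal library, with dotted lines at 2-fold. *Il6* leads at 4.66 and *Krt1* is lowest at -4.95 in the distal library.

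By share of cells at 3000 UMIs, the widest differences outside the rule genes were those of *Cxcl1* (52.2% of the passing against 6.25% of the other cells), *Cebpb* (74.8% against 29.9%) and *Btg2* (60.6% against 26.8%), which encodes an antiproliferative protein. *Nfkbia*, the gene of IkBα, was found in 90.3% against 57.1%. The remaining genes of the 10 widest were *Crip1* (88.5% against 55.9%), *Ifitm1* (46.9% against 16.6%), *Tnfaip6* (57.1% against 27.1%), *Kitl* (52.7% against 23.7%), *Ifitm3* (79.6% against 51.2%) and *Junb* (73.5% against 45.2%). *Kitl* encodes stem cell factor, the ligand of KIT, and *Tnfaip6* a hyaluronan-binding protein induced by TNF.

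The NF-kB and inflammatory list had more genes past 2-fold than any other pathway list. Of its 34 members in the files, 21 were measured, that is, at 20 CPM or more in either group. Of these, 15 were at least 2-fold higher and 0 lower, against 2.43% higher and 2.64% lower over all genes. The median log2 ratio was 1.47 against -0.08 over all genes. *Il6*, *Ptgs2*, *Nfkb2*, *Tnfaip3*, *Bcl3*, *Il1r1* and *Birc3* reached the floor only in the passing cells, so they could not have been counted as lower. The 15 higher genes included the NF-kB subunits *Nfkb1* (224 against 65.0 CPM) and *Nfkb2* (26.2 against 9.95) and the inhibitor *Nfkbia* (1025 against 427). Among them too were *Birc3* (77.5 against 17.8), a ubiquitin ligase of the TNF receptor, and *Nfkbiz* (178 against 61.6). Adhesion molecules for leukocytes were higher too, with *Icam1* at 189 against 52.5 CPM and *Vcam1* at 318 against 158. *Il1r1*, the interleukin 1 receptor, stood at 73.7 against 17.7 CPM and *Ptgs2*, the inducible cyclooxygenase, at 46.4 against 6.06. *Rela* stood at 50.2 against 31.8 CPM, under 2-fold. The cytokine genes *Il1b*, *Tnf*, *Csf2* and *Csf3* and the acute phase gene *Saa3* had 0 UMIs in the 226 cells. Over 226 cells with 5539232 UMIs, a count of 0 speaks only for this depth.

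Among chemokines that the rule did not use, 3 of 4 measured CXC genes were higher, against 2.43% of all genes, namely *Cxcl1*, *Cxcl10* and *Cxcl12* (279 against 136 CPM), the ligand of CXCR4. *Ccl11* was the 1 of 2 measured CC, C and CX3C genes that was higher, and 11 of the 17 in the files were at 0. *Cxcl10* and *Ccl11* reached the floor of 20 CPM only in the passing cells, so they could not have been counted as lower. Receptors were sparse. Of 23 receptor and scavenger genes 15 were at 0 in the 226 cells, and *Ackr3*, a scavenger of CXCL12, was the only one at the floor, with 13 against 25.3 CPM.

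Immediate early and dissociation stress genes moved less. Of 32 measured, 10 were higher and 0 lower, against 2.43% and 2.64% of all genes, and the median log2 ratio was 0.45. *Btg2* (487 against 152 CPM), *Zfp36* (146 against 50.5), *Fosl2* (235 against 92.7) and *Nr4a1* (403 against 168) were among the 10, and *Hspa1a* stood at 127 against 54.4. *Fos* stood at 404 against 398 CPM, *Jun* at 871 against 657 and *Egr1* at 140 against 162, none past 2-fold. The summed level of this list was 13446 CPM against 9741. The part of dissociation in the inflammatory genes was not tested. Of 6 interferon genes measured, *Ifitm1* and *Ifitm3* were higher.

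Pericyte genes were higher as a group in the sum over cells. Of 9 measured, 8 were at least 2-fold higher, against 2.43% of all genes, and 0 lower, and the exception *Cspg4*, the gene of the proteoglycan NG2, stood at 45.7 against 54.5 CPM. Potassium channel genes of pericytes were among the higher ones, *Kcnj8* at 24.6 against 4.49 CPM and *Abcc9* at 41.3 against 5.64, as were *Notch3* (54.9 against 18.7) and *Mcam* (39.0 against 12.3). *Myh11*, *Kcnj8*, *Abcc9*, *Mcam*, *Rgs5* and *Notch3* reached the floor of 20 CPM only in the passing cells, so they could not have been counted as lower. The summed level of the list was 1385 against 198 CPM. At least 3 of the 10 markers were found in 76 of the 226 cells (33.6%) and in 14% of the other cells. These counts were made without thinning, and the passing cells were deeper, so depth and type cannot be told apart in them. In all, 1231 cells of the library held 3 or more markers, whereas the pericyte-like cluster described below held 65 cells. Without cells that held 3 or more of the markers, 151 genes were still higher and 94 of these were shared with the first count. *Rgs5* (-0.55), *Gucy1a3* (-0.86), *Tagln* (-0.95), *Myh11* (-0.24) and *Abcc9* (-0.21) then had negative log2 ratios. All but *Gucy1a3* are among the markers by which the cells were removed, so their values are a description only.

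The inflammatory genes were not restricted to the cells with pericyte markers. Summed, they stood at 4368 CPM in the 76 passing cells with 3 or more pericyte markers and at 3560 in the 150 with fewer. Other distal cells with 3 or more pericyte markers stood at 1473 CPM and all other cells at 1387. Some genes did differ between the 76 and the 150. *Cxcl1* stood at 2078 against 374 CPM and *Il6* at 195 against 17.6. *Nfkbia* stood at 1106 against 968. Depth differed as well, with medians of 29472.5 and 20687 UMIs.

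The 54 cells with *Sp9* differed in level from the other passing cells. A cell with *Sp9* needed fewer of the other rule genes to pass, so these levels are a description only. In the 54 cells *Cxcl1* stood at 336 against 1296 CPM in the 172 without *Sp9*, *Il6* at 23.3 against 111 and *Acta2* at 10.4 against 858. *Shox2*, a homeobox gene of the proximal limb skeleton, stood at 298 against 144. Inflammatory genes differed unevenly, with *Nfkbia* at 823 against 1084 CPM, *Tnfaip3* at 73.9 against 86.2 and *Ptgs2* at 9.64 against 57.1. Summed, the inflammatory list stood at 3298 CPM in the cells with *Sp9* and 4068 in those without, against 1387 in the cells that did not pass.

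The passing cells were not 1 cluster. When the distal library was clustered without the 6 rule genes, they fell into 15 of 25 clusters. A universal fibroblast-like cluster, led by *Dpep1*, *Apod* and *Cryab*, held 92 of them (40.7%, 34.2 to 47.4%) and 6.42% of the other cells. An unnamed cluster led by *Cxcl1*, *Ccl11*, *Col18a1* and *Has1* held 34 (15%) and 1.74% of the others. A dermal fibroblast-like cluster held 22 (9.73%), the pericyte-like cluster 20 (8.85%, against 0.547% of the others), an unnamed cluster led by histone genes 18 (7.96%) and a mitotic-like cluster 10 (4.42%). The share in the pericyte-like cluster depended on the clustering, with 52 passing cells (23.0%) at resolution 0.5 and 50 (22.1%) when cells were thinned before clustering, in clusters that also held 1.91% and 2.10% of the other cells. The name of the first universal fibroblast-like cluster rested on 5 raised markers of its list of 12. At resolution 0.5 the cluster with most passing cells, 105 (46.5%), was given no type name. No cell of the keratinocyte-like and chondrocyte-like clusters passed. The passing cells made up 20 of the 65 pericyte-like cells (30.8%, 19.9 to 43.4%) and 14.8% of the first fibroblast-like cluster (12.1 to 17.9%). Cells with at least 2 of *Foxq1*, *Grin2a* and *Nefm* numbered 249, of which 3 were passing (1.33% of the 226 and 1.20% of the 249). For the 433 cells with at least 2 of *Calb2*, *Cdh4* and *Crym* it was 7 (3.10% and 1.62%). Of the other cells, 2.99% held at least 2 genes of the first set and 5.18% at least 2 of the second.

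**Figure D4:**
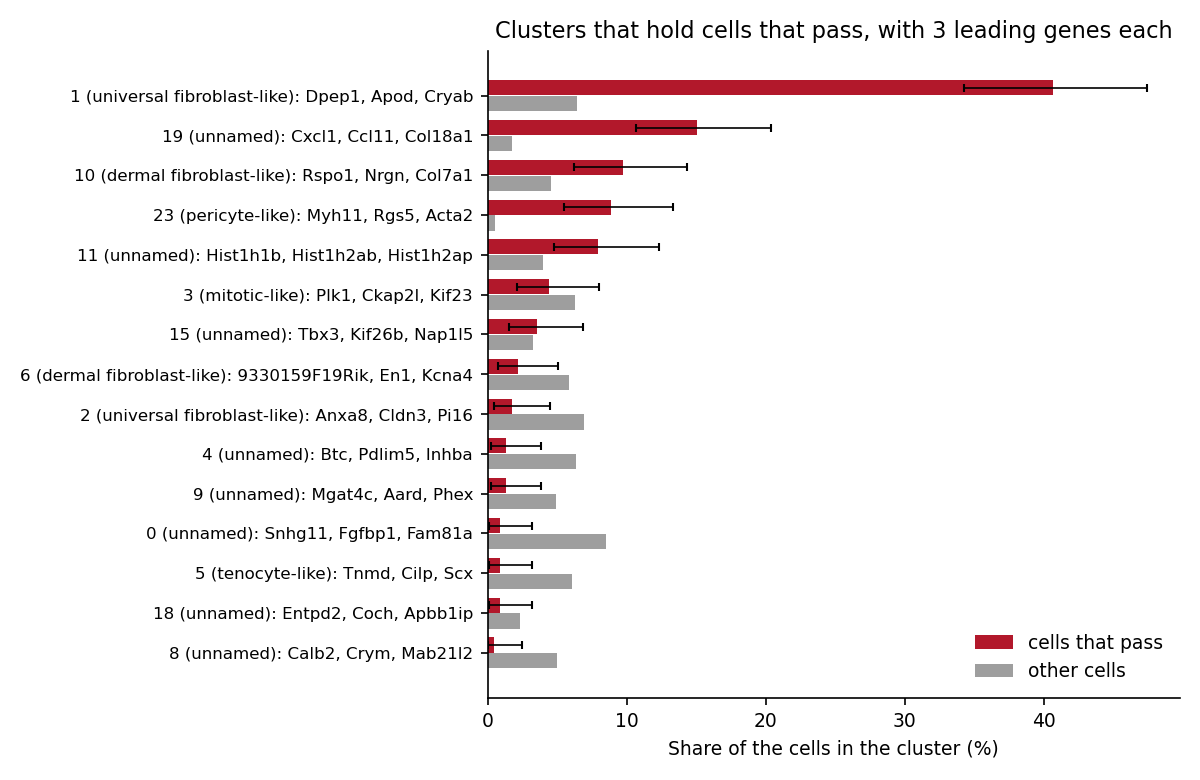
Share of the passing cells and of the other distal cells in each cluster that holds any of them (x axis, percent), with exact binomial 95% intervals and 3 leading genes per cluster. The first universal fibroblast-like cluster holds 40.7% of the passing cells and 6.42% of the others.

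In each of the 6 clusters that held 10 or more of the passing cells, *Cxcl1* and *Nfkbia* stood higher in them than in the other cells of the cluster. In the pericyte-like cluster *Cxcl1* stood at 3288 CPM (3151 to 3429) in the 20 and 663 (613 to 715) in the 45 others, and *Il6* at 476 against 35.8. *Acta2* stood at 5139 against 4218 CPM there, under 2-fold. In the universal fibroblast-like cluster *Cxcl1* stood at 477 against 114 CPM, *Tnfaip3* at 116 against 20.4 and *Nfkbia* at 931 against 563, while *Acta2* was low in both (14.2 and 12.9). In the dermal fibroblast-like cluster *Cxcl1* stood at 362 against 9.70 CPM and *Nfkbia* at 962 against 455, while *Il6* had 1 UMI in the 22 cells. Among the 10 mitotic-like cells *Nfkbia* stood at 1158 against 346 CPM. *Sp9* was found in 55.6% of the 18 cells of the histone-led cluster and in 35.3% of the others there, and in 0 of the 20 pericyte-like ones.

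Against other cells weighted to the same clusters, fewer genes passed 2-fold. The weights were the numbers of passing cells per cluster, whereas the UMIs of the passing cells were pooled. Deeper cells thus counted more among the passing cells, and the part of this in the ratios was not tested. Of the 15 highest genes 9 stayed past 2-fold and all 15 kept their direction, with *Il6* at a log2 ratio of 2.95, *Cxcl1* at 2.55 and *Tnfaip3* at 2.02. *Acta2* (0.73), *Rgs5* (0.28), *Gm13889* (0.77), *Gucy1a3* (0.65), *Tagln* (0.50) and *Rasgrp2* (0.49) did not stay past it. Taken cluster by cluster, between 12 and 14 of the 15 kept their direction in each cluster with 10 or more passing cells. Of the 15 higher inflammatory genes, 8 stayed past 2-fold and 15 kept their direction. In all, 30 genes were higher and 5 lower, and the higher ones included 4 haemoglobin genes. The shares over all genes measured in this comparison were not taken. Both gene sets were chosen as higher in the same passing cells, so the directions they kept are a description only.

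Several NF-kB genes were found more often the more of the 6 genes a cell held, which describes the same cells that the rule sorted. At 3000 UMIs per cell, *Nfkbia* was found in 55.0%, 60.3%, 71.6%, 88.2% and 95.4% of cells with 0, 1, 2, 3 and 4 or more of them. *Cebpb* went from 25.8% to 83.1%, *Icam1* from 11.7% to 47.7% and *Tnfaip3* from 2.40% to 27.7%, with a higher share at each step. *Nfkb1* went from 13.6% to 42.9% at 3 genes and 41.5% at 4 or more, and *Birc3* stood at 21.7% and 21.5% in those. *Ptgs2* and *Bcl3* were highest at 3 genes, with 7.45% and 17.4%, against 3.08% and 13.8% at 4 or more. *Cxcl1* was found in 4.13%, 9.62%, 20.8%, 49.1% and 60.0%. *Hoxd13* ran the other way at first, with 21.9%, 12.2%, 7.98%, 4.97% and 10.8%, and the last of these rests on 65 cells. *Hic1* was found in 7.76% of cells with none of the genes, 3.11% of those with 3 and 9.23% of those with 4 or more. Cells with exactly 2 genes thus lay between, and the threshold of 3 cut through a range.

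**Figure D5:**
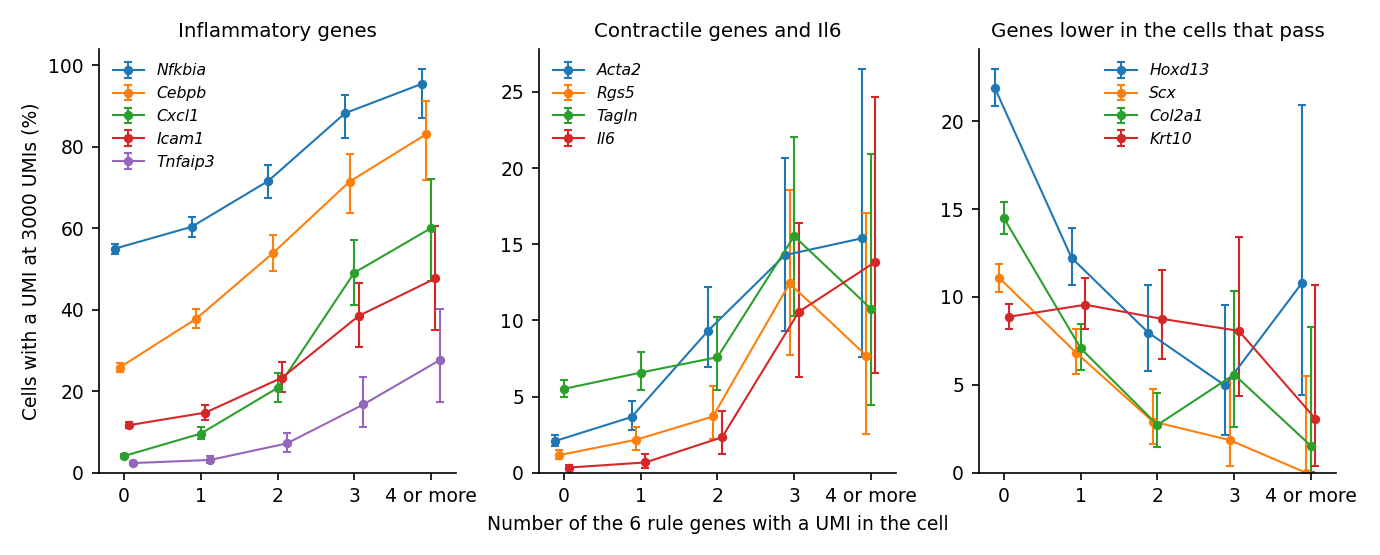
Share of cells with a UMI at 3000 UMIs per cell (y axis, percent) for cells with 0, 1, 2, 3 and 4 or more of the 6 genes (x axis), with exact binomial 95% intervals, in 3 panels for inflammatory genes, contractile genes with *Il6*, and genes lower in the passing cells. *Nfkbia* runs from 55.0% to 95.4% and *Hoxd13* from 21.9% to 10.8%.

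Skeletal and epidermal genes were the lowest in the passing cells. The share of all genes that were lower was 2.64%. All 10 measured chondrocyte genes were lower, with *Col2a1*, the main cartilage collagen, at 71.5 against 492 CPM and 84.3% of those UMIs in 1 cell. All 7 measured keratinocyte genes were lower, with *Krt1* at 6.50 against 231 CPM, and their summed level was 58.7 against 821 CPM. Of 7 tenocyte genes 4 were lower, among them *Scx*, the tendon transcription factor (4.87 against 66.1 CPM), and *Tnmd* (33.8 against 209). Against cells of the same clusters the gaps were smaller. Of the 10 lowest genes only *Scx* (-1.61) and *Mecom* (-1.05) kept a log2 ratio past 1 in size there. With 16.9 and 16.1 CPM in those other cells, both lay under the floor of 20 CPM. *Col2a1* turned to a log2 ratio of 0.81. With cells that held 3 or more keratinocyte markers left out, *Krt1* stood at -0.28.

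In most signalling and matrix lists a minority of genes was past 2-fold, against 2.43% higher and 2.64% lower over all genes. In the BMP list *Bmp3* was lower (9.57 against 20.9 CPM). Of 12 measured members of the Wnt list, *Rspo1* was higher (21.8 against 9.37) and *Dkk2* lower (46.9 against 107). *Rspo1* lost its direction when *Ccl2* was left out of the rule. *Fgf7*, a growth factor for epithelia, was higher (57.2 against 23.2 CPM), and 3 of 11 FGF genes were lower. None of 8 hedgehog genes, 5 further Sp, Klf and limb outgrowth genes or 9 mitotic genes passed 2-fold. In the retinoid list *Crabp2*, a carrier of retinoic acid, was lower (67.9 against 156 CPM) and 0 of 9 were higher. Of 13 protease genes *Adamts1* (408 against 164) and *Adamts4* (91.3 against 26.7), which cut proteoglycans, were higher. Of 28 matrix genes 4 were lower, among them *Ogn* (266 against 589) and *Mfap4* (263 against 605), and none was higher. The guidance list held *Bdnf* (42.6 against 15.9), *Ntn1* and *Vegfc* among the higher and *Epha4* (41.0 against 104) as the lower gene. Fibroblast, nail and other lists were mixed. Of 11 universal fibroblast genes *Cxcl12* and *Ly6a* (78.9 against 36.1 CPM) were higher and none lower, and of 8 dermal fibroblast genes *Irx1* (88.6 against 39.6) and *Rspo1* were higher and *Dkk2* lower. None of 6 nail and digit tip genes passed 2-fold, nor did the single measured gene of the joint list or that of the perineurial list, and no glial, myogenic or osteoblast marker reached 20 CPM. Haemoglobin genes were higher through 1 cell, which held 11398 of the 11403 haemoglobin UMIs. Without it 149 genes were higher and 164 lower.

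The rule was set on the distal library, and 37 cells of the proximal library passed it. Their median depth was 28761 UMIs against 18457 in the other proximal cells. *Ccl2* was found in all 37, *Ccl7* in 31, *Adh7* in 20, *Cxcl2* in 13, *Cxcl5* in 12 and *Sp9* in 3. Of these cells 30 (81.1%) held 3 or more pericyte markers, against 16.8% of the other, shallower proximal cells, counted without thinning. Against the other proximal cells, *Cxcl1* had a log2 ratio of 5.19, *Ccl11* of 3.78, *Il6* of 3.47 and *Acta2* of 2.27. *Nfkbia* (0.27) was not past 2-fold, and *Tnfaip3* (8.01 against 1.98 CPM) and *Rgs16* (6.23 against 3.38) did not reach the floor of 20 CPM. Of 6064 proximal genes at the floor, 295 (4.86%) were higher and 322 (5.31%) lower in the 37 cells. The genes higher in both segments numbered 85, which is 56.3% of the 151 distal and 28.8% of the 295 proximal ones, and 87 genes were lower in both. Of the 151 distal genes, 125 reached the floor in the proximal library, so the rest could not be counted as higher there. A log2 ratio above 0 in that library was found for 135 of the 151, and the share over all genes was not taken. Haemoglobin genes *Hbb-bs* and *Hbb-bt* were the 2 that were higher in the distal and lower in the proximal cells. Of 18 measured inflammatory genes 9 were higher and 0 lower there, against 4.86% and 5.31% of all proximal genes. Of 8 measured pericyte genes 7 were higher, and of 10 measured mitotic genes 7, with 0 lower in either list. The autopod list had 0 of 4 measured genes higher and 4 lower in the proximal cells.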

How the data were processed

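The authors deposited UMI counts as raw matrices of genes by cell barcodes, made with Cell Ranger (submitters' processing notes) on a modified mm10 reference. Per the file headers, the distal library was counted with version 6.0.1 and the other sorted libraries with 3.0.2. Per the labels, the kit was v2 or v3, and the methods of the paper give v3 for E14.5 and E16.5. Total UMIs per library ran from 32957305 to 236408650, and the distal library held 160375326 over 9061 barcodes. Groups came from the labels.

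The members and lists were chosen with earlier results of these data known. Counts were summed over cells and scaled to a total of 1000000 (CPM), and ratios were of CPM + 1. A gene was counted past 2-fold at a log2 ratio of at least 1 in size and at least 20 CPM in the higher group. It was measured at 20 CPM or more in either group. A gene that reached the floor in only 1 group could thus be past 2-fold in only 1 direction. Named were the 6 rule genes, the 15 highest and 10 lowest genes at 50 CPM or more that were detected in at least 10% of the cells of the higher group, up to 4 members of each list, and the 10 genes with the widest difference in share of cells at 3000 UMIs. Haemoglobin, mitochondrial, sex-linked and ribosomal protein genes were left out of the highest and lowest. Further list members, and the haemoglobin genes, are named beside their counts and were chosen after their values were seen. For the thinned values UMIs were drawn from each cell to 3000. No test was made, since each sorted group was 1 library.

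The distal library was clustered without the 6 genes (scanpy 1.11.5, leidenalg 0.10.2, igraph 0.11.9, 2000 variable genes, 50 components, 25 neighbours, resolution 1). A cluster was named from 3 or more raised markers. That a marker had to be among its 10 leading genes was added after these were seen. Scrublet marked 0.0331% of the distal barcodes as doublets, under the 0.5% taken here as the least for a usable call, so no doublets were removed, and its scores were used only in an alternative. The summing and ratio steps were tested on simulated data. Upstream sequences and gene positions came from RefSeq and from annotation of GRCm38, and 3 of the 6 rule genes had a window. Python 3.11.15, numpy 2.4.6, scipy 1.17.1, pandas 2.3.3 and matplotlib 3.10.9 were used. Alternatives to the rule, filter, floor, pseudocount, scaling, comparison cells and clustering were run, and 3 of them were added after the data were seen: the highest 7% of doublet scores, cells with 3 pericyte markers, and the cell with over 1000 haemoglobin UMIs, each removed. Values of 2 genes are not reported here.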

Additional observations from a re-analysis of the deposited data

Results flagged for a closer look

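*Adh1*, the gene of another retinol-oxidising alcohol dehydrogenase, had log2 ratios of opposite sign in the E16.5 segments. Its log2 ratio of CPM + 1, passing over other cells, was 1.32 in the distal library (19.3 against 7.12 CPM) and -2.18 in the proximal one (7.12 against 35.9 CPM, from 8 UMIs in the cells that passed). The distal level was under the floor of 20 CPM. Against other cells weighted to the same clusters it stood at 19.3 against 18.2 CPM, a log2 ratio of 0.08. The distal difference was not seen in that comparison. Each segment was 1 library, and the difference was not tested.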

How the results depend on the processing

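The share of distal cells that passed, 2.68%, followed the rule. It was 8.76% with at least 2 of the 6 genes, 0.770% with at least 4 and 0.485% with cells thinned to 3000 UMIs. Leaving a gene out of the rule gave 1.12% without *Ccl2*, 1.40% without *Ccl7*, 1.61% without *Cxcl2*, 1.93% without *Adh7*, 1.98% without *Cxcl5* and 2.30% without *Sp9*. It was 2.08% with cells of 3 pericyte markers removed. The counts of genes higher, lower and past 2-fold upwards in both segments (151, 164 and 85) became 87, 90 and 38 with at least 2 genes, 256, 297 and 132 with thinned cells, 338, 692 and 180 with no floor, 272, 399 and 157 at a floor of 5 CPM, 51, 32 and 22 at 100 CPM, and 30, 5 and 19 against the same clusters. Higher genes made up 47.9% of the genes past 2-fold, 32.8% with no floor, 61.4% at 100 CPM and 85.7% against the same clusters. At clustering resolution 2 the largest share in 1 cluster was 23.5% in place of 40.7%, and the share in the pericyte-like cluster, 8.85%, was 23.0% at resolution 0.5 and 22.1% with thinned cells.

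Reversed log2 ratios were those of *Rgs5* (-0.55), *Gucy1a3* (-0.86), *Tagln* (-0.95), *Myh11* (-0.24) and *Abcc9* (-0.21) with pericyte-marker cells removed, of *Col2a1* (0.81), *Myh11* (-0.28) and *Tnc* (0.72) against the same clusters, of *Tagln* (-0.00175) and *Rspo1* (-0.00285) without *Ccl2*, and of *Tagln* without *Ccl7* (-0.28) and without *Cxcl2* (-0.22). *Rgs5*, *Tagln*, *Myh11* and *Abcc9* are among the pericyte markers by which cells were removed. The causes were not tested. For single genes, 2459 values stayed within the set range, 753 moved and 12 reversed. No paired analysis was possible because no stage or segment of the sorted cells had a replicate library. Depth limits which cells pass and what a count of 0 means.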
